A study of Sus scrofa with 12 samples.

Results

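The genes described here are those of fatty acid synthesis from acetyl-CoA and of fatty acid desaturation, taken from a list of 10 gene names and followed across the jejunum RNA-seq libraries of 12 piglets. A gene was included where the table of expression values carries its name, and rows with the same name were summed. Of the 10 names, 6 were found among 17049 gene names, namely fatty acid synthase (FASN, listed by its Ensembl identifier ENSSSCG00000029944), stearoyl-CoA desaturase (SCD), acetyl-CoA carboxylase alpha (ACACA), fatty acid desaturase 1 (FADS1), fatty acid desaturase 2 (FADS2) and malic enzyme 1 (ME1). ATP citrate lyase (ACLY) was matched through the gene symbol of its Ensembl identifier (ENSSSCG00000017421), and its values are given beside the 6. ELOVL5, ELOVL6 and SREBF1 were not matched by name and were not analysed here.

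The 12 libraries fall into 4 groups of 3 piglets. Sucking piglets of control sows (W_Con) were taken at 21 days of age, on the day of weaning, and weaned piglets of control sows (PW_Con) at 28 days. The other two groups are sucking (W_Res) and weaned (PW_Res) piglets of the same ages, from sows whose diet held 300 mg/kg resveratrol, a plant polyphenol, beginning 20 days after breeding and lasting until the end of lactation. All sows received the same corn and soybean meal basal diet, resveratrol was given to the sows, and weaning cannot be told apart from 7 days of age. Litters were standardized by cross-fostering within a diet, and the labels do not tie a piglet to its litter. They do not give the breed of the sows, while the study's methods name Yorkshire × Duroc litters. The methods describe male piglets moved to a nursing room at weaning, whereas the labels keep the piglets in their pens until day 28. They also describe taking a male piglet from each litter at both ages. Sucking and weaned control piglets may thus share litters, while the main tests treated them as independent. Expression was deposited as FPKM, in which the fragments of a gene are divided by its exon length and by the mapped reads of the library. FPKM is not a read count, so the depth behind a single gene is unknown.

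In mammals, cytosolic acetyl-CoA is made from citrate by ACLY and carboxylated to malonyl-CoA by ACACA. FASN then builds palmitate from malonyl-CoA with NADPH, part of which ME1 supplies. SCD puts a double bond into saturated fatty acids to give oleate and palmitoleate. FADS2 and FADS1, whose genes lie side by side, carry out the delta-6 and delta-5 desaturation steps by which linoleic and alpha-linolenic acid become arachidonic and eicosapentaenoic acid. In a sucking animal the enterocyte mainly absorbs milk fat and re-esterifies it into chylomicrons, and lipogenic enzymes are commonly low under a high-fat milk diet and higher under a starch-rich diet.

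The libraries were alike in summed FPKM, from 313171 to 334469, but W_Res 2 and W_Res 3 stood apart, with 7751 and 6482 rows without a gene name at 1 FPKM or more against 2055 to 3700 in the other 10. The enterocyte genes VIL1 (296 to 1062 FPKM) and FABP2 (60.3 to 759 FPKM) were present in every library. The summed FPKM of 4 distal small intestine markers, among them FABP6, ranged from 53.7 to 24519, was high in all 3 PW_Con libraries and differed widely within each of the other groups. The summed FPKM of 5 smooth muscle markers was 1756, 3855 and 644 in W_Res 1 to 3 and 148 to 621 in the other libraries. The extraction text of the labels speaks of an adipose type although the tissue label is jejunum, and of 8 adipocyte markers 5 were matched. Their sums were 35.1 to 99.7 FPKM in W_Con, 54.9 to 88.2 in W_Res, 26.4 to 47.3 in PW_Con and 53.0 to 73.3 in PW_Res, so that PW_Con lay below both resveratrol groups. PLIN1 reached at most 2.60 FPKM, in W_Res 1, and LEP was listed at 0 in 11 libraries, while CIDEC had 23.0 to 78.9 FPKM and PCK1 1.20 to 51.4 FPKM, with the highest PCK1 in W_Res 2 and W_Res 3. In whole jejunum, fewer cells of a type and less RNA per cell cannot be told apart.

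Expression levels set per length of transcript placed ACLY first, with a mean of 28.0 FPKM over the 12 libraries, above 90.5% of all gene names. FASN followed with 14.1 FPKM (82.5%). FADS2 (10.3 FPKM), SCD (10.15 FPKM) and ACACA (9.97 FPKM) were close to each other, and their ranges over the libraries overlapped, so their order carries no weight. FADS1 had 4.46 FPKM (60.6%). ME1 was low throughout, between 0.126 and 0.690 FPKM with a mean of 0.396 FPKM, which is under the minimum mean of 0.5 FPKM required for a test. So 5 of the 6 members were tested.

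**Figure D1:**
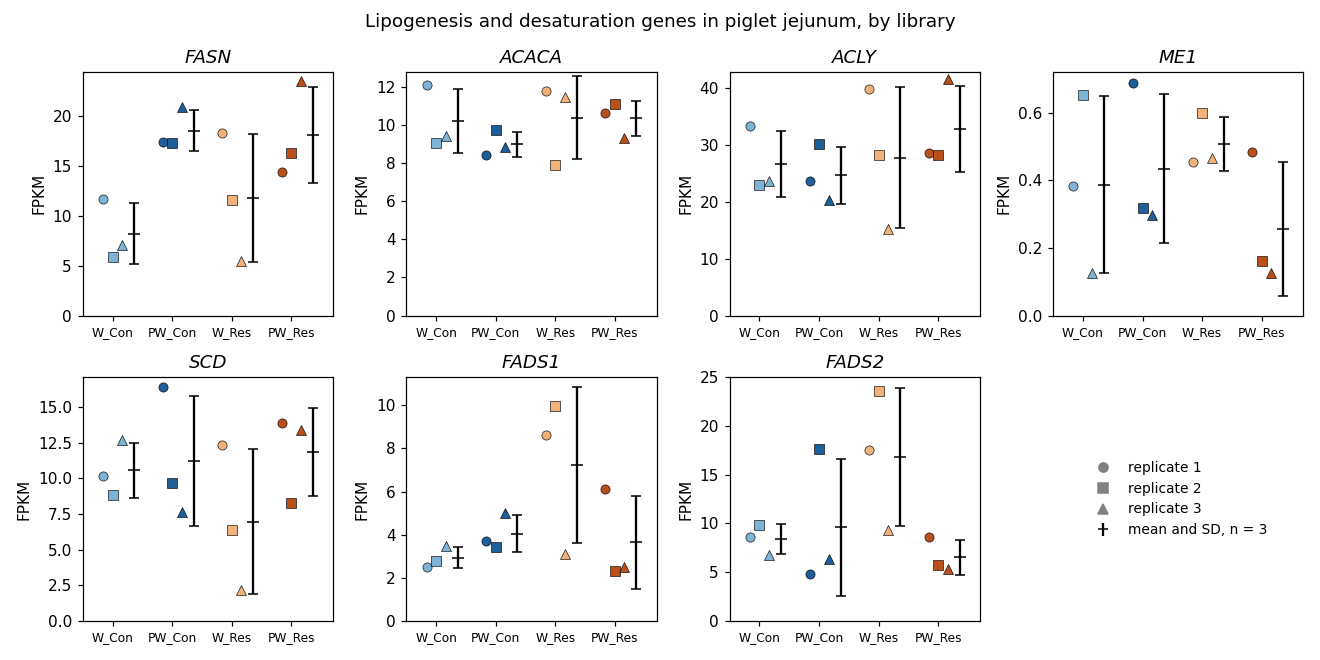
FPKM (vertical axes, each starting at 0) of the members and ACLY in each of the 12 libraries, grouped as sucking and weaned piglets of control and resveratrol sows; each point is 1 library, its shape the replicate, and the cross and bar beside them are the group mean and SD (n = 3). FASN in PW_Con lies between 17.3 and 20.9 FPKM, above the 3 W_Con libraries, and FADS1 is highest in W_Res 1 and W_Res 2, and FADS2 in W_Res 2, PW_Con 2 and W_Res 1.

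The first question is what differs between sucking and weaned piglets of control sows. FASN had 11.7, 5.89 and 7.03 FPKM in W_Con 1 to 3 and 17.4, 17.3 and 20.9 FPKM in PW_Con 1 to 3. Every weaned library lay above every sucking library, and the group means were 8.20 ± 3.06 and 18.5 ± 2.05 FPKM (SD, n = 3 each). On the log2(FPKM + 1) scale, which understates changes of low values, FASN was higher in weaned piglets by 1.13 (standard error 0.25, 95% confidence interval 0.55 to 1.72, limma adjusted p = 0.125). It met the study's standard for a differentially expressed gene, an unadjusted P under 0.05 with a log2 fold change above 1 or below -1, but not an adjusted p under 0.05 over all gene names. FASN was the 1 of 5 tested members to meet the standard, which 3.31% of the 12611 gene names tested met. Groups that do not overlap were found for 25.3% of these names. The study itself lists the FASN identifier as up-regulated, under fatty acid metabolism, from the same control libraries. Its call here was thus known beforehand and is not separate evidence. Without W_Con 2, the lowest of the sucking control libraries, the difference was 0.95, inside the fold limit.

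The enzyme upstream of FASN did not follow it. ACACA, the step that commits acetyl-CoA to fatty acid synthesis, had 12.1, 9.05 and 9.43 FPKM in W_Con and 8.40, 9.70 and 8.85 FPKM in PW_Con. These groups overlapped, with a log2 difference of -0.16 (95% confidence interval -0.56 to 0.25, limma adjusted p = 0.687). ACLY also overlapped, at 33.4, 23.1 and 23.7 FPKM against 23.6, 30.2 and 20.3 FPKM, a log2 difference of -0.11 (-0.62 to 0.41, limma adjusted p = 0.847). Within a library, the ratio of FASN to ACACA in FPKM was 0.963, 0.651 and 0.746 in W_Con and 2.07, 1.78 and 2.36 in PW_Con. The ratio of FASN to ACLY was 0.349, 0.255 and 0.297 in W_Con and 0.737, 0.573 and 1.03 in PW_Con. Both ratios were higher in every weaned than in every sucking control library. The ratio of FASN to SCD overlapped, at 1.15, 0.664 and 0.555 in W_Con and 1.06, 1.78 and 2.74 in PW_Con. All these ratios hold the FASN values given above and are not separate evidence.

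**Figure D2:**
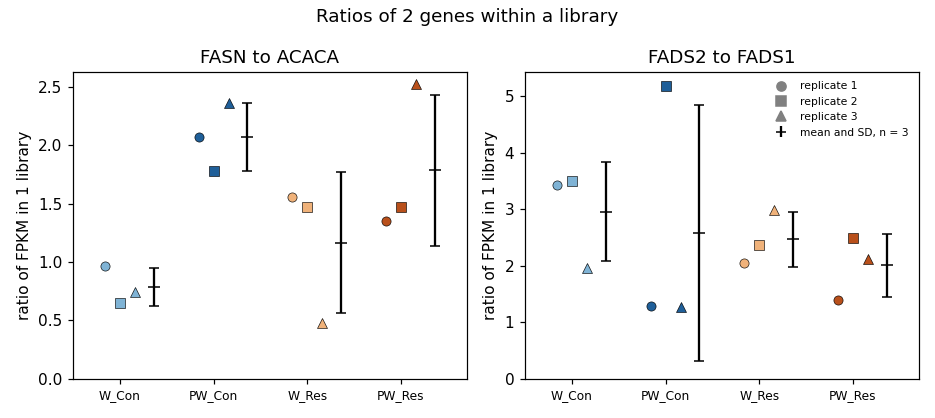
Ratios of FPKM within each of the 12 libraries, FASN to ACACA and FADS2 to FADS1 (vertical axes, starting at 0); each point is 1 library. FASN to ACACA is 1.78 to 2.36 in PW_Con and 0.651 to 0.963 in W_Con, while the FADS2 to FADS1 ratios of the 4 groups overlap.

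The desaturases did not separate sucking from weaned control piglets. SCD, which makes oleate from stearate, had 10.15, 8.86 and 12.7 FPKM in W_Con and 16.4, 9.68 and 7.61 FPKM in PW_Con, a log2 difference of 0.03 (95% confidence interval -0.64 to 0.70, limma adjusted p = 0.971). FADS2 had 8.59, 9.79 and 6.80 FPKM in W_Con and 4.77, 17.7 and 6.37 FPKM in PW_Con, where PW_Con 2 was far above the other two. Its log2 difference was -0.0078, with a wide interval of -0.9997 to 0.98. FADS1 had 2.51, 2.80 and 3.48 FPKM against 3.72, 3.41 and 5.02 FPKM, a log2 difference of 0.36 (95% confidence interval -0.12 to 0.83, limma adjusted p = 0.407). The median log2 difference of the 5 members was 0.03, beside -0.016 over all genes tested. The distal small intestine markers were mostly higher in the weaned control libraries, at 8265, 1350 and 73.0 summed FPKM in W_Con 1 to 3 and 9961, 9086 and 6741 in PW_Con 1 to 3. In the same comparison 2 of 6 enterocyte markers met the standard as lower in weaned piglets. FABP2, which was among them, had 260, 759 and 419 FPKM in W_Con and 131, 106 and 60.3 FPKM in PW_Con. The enterocyte markers VIL1, SI and ANPEP differed little, with means of 900, 28.8 and 2029 FPKM in W_Con and 829, 27.6 and 2000 FPKM in PW_Con. Of the 6 markers 1 had a log2 difference above 0, and the median was -0.37. Of 7 crypt and cell division markers tested 6 had log2 differences above 0, with a median of 0.13, and 0 met the standard. An unadjusted P under 0.05 with a higher level in weaned piglets was found for 2 of the 7 and for 9.35% of gene names. The part of these markers in the FASN difference was not tested. Among the W_Con libraries W_Con 1 had the highest distal sum and the most FASN. W_Con 2 had a higher distal sum than W_Con 3 and less FASN. In PW_Res 1 to 3 the distal sums were 24519, 94.9 and 105 FPKM, and FASN had 14.4, 16.3 and 23.5 FPKM. W_Res 3 had a distal sum of 6380 FPKM and the lowest FASN of all libraries, 5.44 FPKM.

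The second question is whether the litters of resveratrol-fed sows show the same difference between ages. FASN had 18.3, 11.6 and 5.44 FPKM in W_Res 1 to 3 and 14.4, 16.3 and 23.5 FPKM in PW_Res 1 to 3. The groups overlapped because W_Res 1 was above PW_Res 1 and PW_Res 2, and the group means were 11.8 ± 6.44 and 18.1 ± 4.80 FPKM (SD, n = 3 each). The log2 difference was 0.69 (standard error 0.41, 95% confidence interval -0.26 to 1.63, limma adjusted p = 0.489). Leaving out W_Res 1 moved it to 1.05, past the standard, and leaving out W_Res 3 to 0.26. The weaning difference of FASN in resveratrol litters minus that in control litters was -0.44 (95% confidence interval -1.57 to 0.68, limma adjusted p = 0.726), so no difference between the litters was detected, and the interval includes 0 and values past the fold limit. The ratio of FASN to ACACA was 1.56, 1.47 and 0.474 in W_Res and 1.36, 1.47 and 2.53 in PW_Res, and here the groups overlapped.

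FADS2 was the member that met the standard in the resveratrol litters. It had 17.6, 23.5 and 9.33 FPKM in W_Res 1 to 3 and 8.57, 5.77 and 5.27 FPKM in PW_Res 1 to 3. Every sucking library lay above every weaned library. The log2 difference was -1.18 (standard error 0.35, 95% confidence interval -1.99 to -0.36, limma adjusted p = 0.311). It was the 1 of 5 tested members to meet the standard, against 4.75% of 13013 gene names, and groups that do not overlap were found for 21.8% of these names. In the same comparison 5 of 5 smooth muscle markers met the standard as lower in weaned piglets, with a median log2 difference of -2.48, and so did 1 of 4 adipocyte markers. Of these 4 adipocyte markers 3 had log2 differences below 0. The other, CIDEC, was higher in weaned piglets, with 35.6, 32.0 and 23.0 FPKM in W_Res and 37.5, 50.8 and 49.2 FPKM in PW_Res. The part of the smooth muscle and adipocyte markers in the FADS2 difference was not tested. In this comparison the median of all genes tested was itself at -0.16, and FADS2 lay 1.01 below it. Median-of-ratios rescaling, which removes that shift by moving the median of all genes up by 0.17, put FADS2 at -0.97, just inside the fold limit, and SCD at 1.09, past the standard. The same rescaling changed the share of higher among all genes meeting the standard from 20.9% to 44.6%. FADS2 was also inside the limit without W_Res 2 (-0.90) and when only rows with an annotated transcript were summed (-0.99, limma adjusted p = 0.409), and with the Ballgown model the sign turned (0.27).

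In limma FADS1 pointed the same way without meeting the standard, and with the Ballgown model its sign turned as well. Its values were 8.61, 9.95 and 3.12 FPKM in W_Res and 6.14, 2.31 and 2.48 FPKM in PW_Res, and the log2 difference was -0.80 (95% confidence interval -1.86 to 0.26, limma adjusted p = 0.473). It met the standard without W_Res 3 (-1.24) and without PW_Res 1 (-1.16), and was -0.53 without W_Res 2. SCD had 12.3, 6.36 and 2.19 FPKM in W_Res and 13.9, 8.29 and 13.4 FPKM in PW_Res. The value of W_Res 3 was the lowest SCD level of the 12 libraries, and the log2 difference of 0.89 carried an interval of -0.27 to 2.05 (limma adjusted p = 0.468). Leaving out W_Res 1 moved it to 1.38, past the standard, and leaving out W_Res 3 to 0.34. ACACA stayed between 7.89 and 11.8 FPKM in these 6 libraries, with a log2 difference of 0.0093 (-0.51 to 0.53). ACLY had 39.9, 28.3 and 15.2 FPKM in W_Res and 28.7, 28.4 and 41.6 FPKM in PW_Res, a log2 difference of 0.31 (-0.52 to 1.15). The median log2 difference of the 5 members was 0.0093, beside -0.16 over all genes tested. Without W_Res 2 and W_Res 3, which leaves 1 sucking library, the differences of FASN (-0.05), SCD (-0.08), ACACA (-0.18) and ACLY (-0.29) all changed sign and that of FADS2 was -1.33. In that fit the lone sucking library is assumed to vary like the weaned ones.

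**Figure D3:**
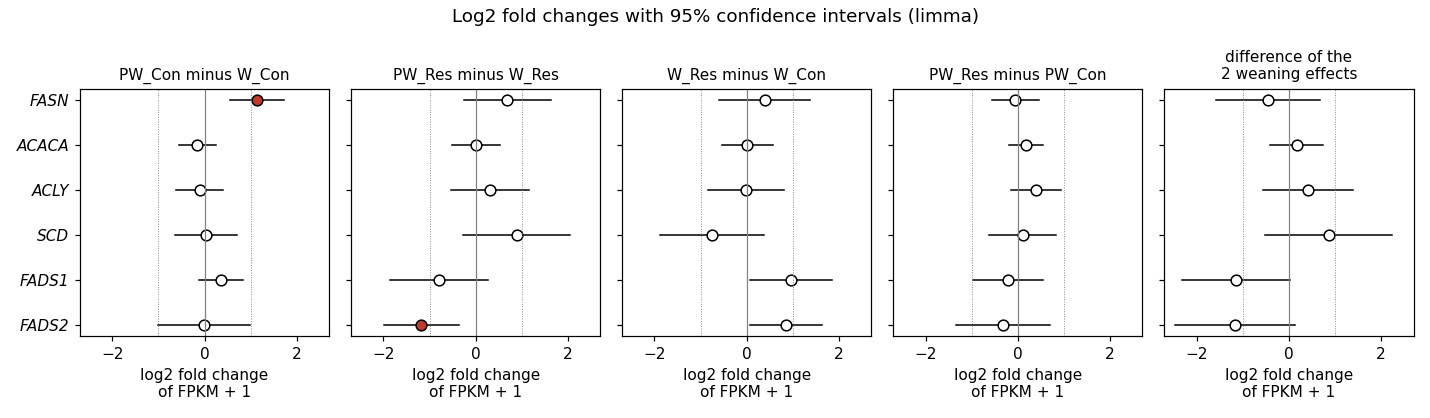
Differences on the log2(FPKM + 1) scale (horizontal axis) of the tested members and ACLY in the comparisons of age and of maternal diet; points are limma estimates, lines their 95% confidence intervals, dotted lines the fold limit of the study's standard, and filled points meet that standard. FASN in control litters (1.13) and FADS2 in resveratrol litters (-1.18) have intervals that leave out 0, as do FADS1 (0.95) and FADS2 (0.85) for maternal resveratrol at 21 days.

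The FADS1 and FADS2 differences can also be read as a comparison of the maternal diets at 21 days. In sucking piglets the log2 difference of resveratrol against control litters was 0.95 for FADS1 (standard error 0.38, 95% confidence interval 0.07 to 1.84, limma adjusted p = 0.363). It was 0.85 for FADS2 (standard error 0.34, 95% confidence interval 0.07 to 1.63, limma adjusted p = 0.363). Neither met the standard, and for each of them W_Res 3 lay within the W_Con range (3.12 against 2.51 to 3.48 FPKM for FADS1, and 9.33 against 6.80 to 9.79 FPKM for FADS2). Thus 0 of 5 members met the standard, against 4.47% of 13186 gene names. In limma the unadjusted P of 2 of 5 was under 0.05, against 13.3% of all, and in the Ballgown model that of 0 of 5. Without W_Res 3 both met the standard, at 1.39 and 1.20, and the lowest values with 1 library left out were 0.69 and 0.57. The 2 W_Res libraries with high FADS1 and FADS2 were those with the highest smooth muscle marker sums (1756 and 3855 summed FPKM), and 4 of 5 smooth muscle markers met the standard as higher in W_Res than in W_Con. Of the 4 adipocyte markers tested at 21 days 1 met the standard as higher, CIDEA, with 6.16 and 6.56 FPKM in those libraries and 0.0214 to 1.59 FPKM in the others. In all 3 of the 4 had log2 differences above 0 and 1 was at -0.82, namely CIDEC, with 35.6, 32.0 and 23.0 FPKM in W_Res and 29.4, 65.0 and 78.9 FPKM in W_Con. The 6 enterocyte markers all had log2 differences below 0 at 21 days, with a median of -0.82, and 1 of them met the standard. Of 4 lymphocyte markers tested 2 had log2 differences below 0, and 1 met the standard as lower, the T cell gene CD3E, with 82.5, 49.1 and 54.8 FPKM in W_Con and 12.5, 19.2 and 20.3 FPKM in W_Res. Outside these groups, PW_Con 2 had 17.7 FPKM of FADS2, above W_Res 1, with a smooth muscle marker sum of 547 FPKM. PW_Res 1 had 6.14 FPKM of FADS1 with a sum of 619 FPKM. W_Res 3 had 3.12 FPKM of FADS1 with a sum of 644 FPKM. Whether the makeup of cells in the samples had a part in the FADS1 and FADS2 levels was not tested.

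For the other members the intervals at 21 days included 0. FASN had a log2 difference of 0.39 (95% confidence interval -0.60 to 1.38) and SCD of -0.75 (-1.87 to 0.37, limma adjusted p = 0.505), and ACACA (0.015) and ACLY (-0.023) were near 0. Without W_Res 1 the FASN value was 0.019 and that of SCD -1.24, past the standard, and without W_Res 3 they were 0.81 and -0.21. FASN was also at 0.64 without W_Con 1 and 0.20 without W_Con 2. At 28 days, 0 of 5 members met the standard, against 1.81% of 12380 gene names, and for 0 of them was the unadjusted P under 0.05 with limma or Ballgown, against 10.2% of all in limma. The diet differences in weaned piglets were -0.06 for FASN (-0.57 to 0.45), 0.11 for SCD (-0.63 to 0.84), 0.18 for ACACA (-0.19 to 0.55), -0.20 for FADS1 (-0.96 to 0.56) and -0.32 for FADS2 (-1.34 to 0.70). ACLY had the highest value, 0.39 (-0.14 to 0.93, limma adjusted p = 0.575). With the Ballgown model the signs of FADS1 and FADS2 turned. That of FADS1 also turned when only the highest row or annotated rows were used, and that of FASN with median-of-ratios rescaling.

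The test of the difference between the weaning effects used all 12 libraries. It shares each group with the comparisons above and is not separate evidence. FADS1 and FADS2 had the lowest values, -1.16 (95% confidence interval -2.32 to 0.014, limma adjusted p = 0.369) and -1.17 (-2.47 to 0.13, limma adjusted p = 0.401). SCD had 0.86 (-0.51 to 2.23) and ACACA 0.17 (-0.41 to 0.75). With 1 library left out FADS1 ranged from -1.59 to -0.89 and FADS2 from -1.52 to -0.66, each past the standard in 2 of 12 fits. SCD ranged from 0.31 to 1.35, past the standard in 1 fit, and FASN from -0.87 to -0.076. The standard was met by 0 of 5 members and by 7.76% of 12886 gene names. A P under 0.05 before adjustment was reached by 0 of 5, with limma or Ballgown, and by 13.7% of the gene names with limma. With the replicate block in the limma fit, FADS2 (-1.17) reached an unadjusted P under 0.05 and met the standard. The median of all genes was -0.15 in this contrast, relative to which FADS1 lay at -1.002 and FADS2 at -1.02.

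Averaged over both diets, FASN was higher after weaning by 0.91 (standard error 0.26, 95% confidence interval 0.35 to 1.47, limma adjusted p = 0.131). That is inside the fold limit, so 0 of 5 members met the standard, which 1.42% of 12886 gene names met. FASN was the member with an unadjusted P under 0.05, in limma and in the Ballgown model, while 19% of gene names had such a P in limma. Relative to the median of all genes (-0.10) the FASN value was 1.01. The other members had 0.46 (SCD), -0.07 (ACACA), -0.22 (FADS1) and -0.59 (FADS2, limma adjusted p = 0.299). Averaged over both ages, maternal resveratrol left 0 of 5 members at the standard, against 0.939% of gene names. FADS1 had the highest value there, 0.38 (-0.21 to 0.96, limma adjusted p = 0.568). After adjustment 0 of 5 members were under 0.05 in each of the 7 comparisons, with limma or Ballgown. The share of all gene names under 0.05 with limma was 0 in control litters, at 21 days and for the difference, 0.00768% in resveratrol litters, 0.00808% at 28 days, 0.0776% for weaning on average (10 gene names, and 0 to 179 with 1 library left out) and 0.14% for resveratrol on average (18 gene names, and 0 to 33 with 1 library left out). With Ballgown the last 2 counts were 0 and 9.

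FADS1, FADS2 and ACACA were each assembled into more than 1 row. The 2 ACACA rows, of which each holds an annotated transcript, had means of 3.92 and 6.06 FPKM and no library at 0. For FADS1, the row with an annotated transcript had 2.03, 1.67 and 2.92 FPKM in W_Con and 5.32, 9.21 and 3.12 FPKM in W_Res, so W_Res lay above W_Con without overlap in that row, with 3.12 FPKM the lowest and 2.92 FPKM the highest value. At 21 days 21% of all gene names, with their rows summed, did not overlap. Its second row, which has no annotated transcript, ranged from 0 in W_Res 3 to 3.29 FPKM in W_Res 1. For FADS2, the annotated row had 12.4, 21.9 and 6.78 FPKM in W_Res and 8.42, 5.54 and 3.91 FPKM in PW_Res, where W_Res 3 fell below PW_Res 1. The separation of the summed FADS2 values thus rested on the other rows, of which 1 was listed at 0 in 7 libraries and at 2.19 FPKM in W_Res 3. The ratio of FADS2 to FADS1 varied from 1.27 to 5.18 over the libraries, with the highest value in PW_Con 2, and overlapped between all groups.

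As a description of the FASN pattern, 7744 genes (those having a symbol and averaging 1 FPKM or more) were ranked by Pearson's r with FASN on the log2 scale over the 12 libraries, which share their groups and their scaling. The 5 nearest were RPAP1 (0.931), PIF1 (0.912), NOC4L (0.909), HTT (0.909) and RUVBL2 (0.906). Among the other members SCD had 0.524 (rank 942), FADS1 0.173 (rank 2701), ACACA -0.0997 (rank 4559) and FADS2 -0.13 (rank 4769).

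Further genes of the pathway were taken from 5 lists. Among the genes that control lipogenic transcription, 11 of 17 were matched and 10 tested. In control litters 0 of these met the standard, against 3.31% of all gene names, and in resveratrol litters 1 did, against 4.75%. This was PPARG, the nuclear receptor that drives fat storage genes, with 3.98, 1.28 and 1.80 FPKM in W_Res and 4.97, 11.6 and 11.2 FPKM in PW_Res. All weaned libraries lay above all sucking libraries, with a log2 difference of 1.62 (standard error 0.40, limma adjusted p = 0.311). Groups without overlap were found for 21.8% of gene names in these litters, both directions together. With the weaned libraries higher they were found for 3.93%, and 0.991% met the standard as higher. In control litters PPARG had 2.10, 2.10 and 4.16 FPKM in W_Con and 4.93, 1.27 and 2.56 FPKM in PW_Con, and the difference between the litters was 1.63 (limma adjusted p = 0.286). Without W_Res 2 and W_Res 3 the PPARG difference was 0.97, and with the Ballgown model 0.43.

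At 21 days 1 of the 10 genes of that list met the standard, against 4.47% of all gene names, and it is named because of its value. MLXIPL, the glucose-responsive factor ChREBP that acts on FASN and ACACA, had 3.38, 2.54 and 1.10 FPKM in W_Con and 3.92, 10.4 and 7.76 FPKM in W_Res. Its log2 difference was 1.31 (standard error 0.40, limma adjusted p = 0.344). Its groups did not overlap, as those of 21% of the 13186 gene names did not, and 4 other genes of the list also lay higher in W_Res without overlap and without meeting the standard (MBTPS1, NR1H2, NR1H3 and USF2, at 0.31 to 0.57). The difference of the weaning effects was -1.32 for MLXIPL (limma adjusted p = 0.317).

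Of the enzymes that supply acetyl-CoA and NADPH, all 12 were matched and 11 tested, the exception being under the FPKM minimum. In control litters 1 of 11 met the standard, against 3.31% of all gene names. This was PDHA1, a subunit of the pyruvate dehydrogenase that makes mitochondrial acetyl-CoA. It had 27.2, 59.3 and 36.2 FPKM in W_Con and 16.6, 17.5 and 17.0 FPKM in PW_Con, all weaned below all sucking libraries (25.3% of gene names did not overlap in these litters), with a log2 difference of -1.15 (standard error 0.27, limma adjusted p = 0.135). Without W_Con 2 it was -0.85, and the Ballgown model gave -1.16 with an unadjusted P just above 0.05. In resveratrol litters PDHA1 had 28.1, 28.3 and 26.5 FPKM in W_Res and 19.2, 21.0 and 27.5 FPKM in PW_Res, which overlapped, with a log2 difference of -0.29 (limma adjusted p = 0.558), and 0 of the 11 met the standard there.

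Of the other elongation and desaturation genes 16 of 18 were matched. In control litters 0 of 11 tested met the standard, against 3.31% of all gene names, and in resveratrol litters 1 of 12 did, against 4.75%. This was ELOVL1, which elongates saturated very long-chain acyl-CoAs, with 20.2, 11.3 and 11.2 FPKM in W_Res and 32.2, 37.2 and 32.1 FPKM in PW_Res. Its log2 difference was 1.24 (standard error 0.27, limma adjusted p = 0.311). It was 0.71 without W_Res 2 and W_Res 3, and the Ballgown model gave 1.01 with an unadjusted P above 0.05. In control litters ELOVL1 had 20.1, 22.7 and 29.4 FPKM in W_Con and 28.9, 29.2 and 34.5 FPKM in PW_Con, which overlapped (0.36), and the average over both diets was 0.80 (limma adjusted p = 0.0629). The adjusted p of that average was 0.0358 with median-of-ratios rescaling, 0.0495 with a minimum of 5 FPKM and 0.0257 without W_Res 1, and with the other settings it lay between 0.0507 and 0.438 (Ballgown). At 21 days 1 of 12 genes of this list met the standard, against 4.47% of all gene names, and it is named because of its value. ACACB, the carboxylase isoform of the mitochondrial surface, had 0.755, 1.09 and 1.03 FPKM in W_Con and 2.65, 3.64 and 2.90 FPKM in W_Res, a log2 difference of 1.05 (standard error 0.23, limma adjusted p = 0.317), where ACACA had 0.015. FADS3, the neighbour of FADS2, had a log2 difference of -0.90 between the ages in resveratrol litters, with an unadjusted P under 0.05 like 13.3% of gene names in that comparison, and is likewise named because of its value.

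Of the acyl-CoA synthetases and fatty acid transporters that activate fatty acids, 8 of 9 were matched and 6 tested. In control litters 1 of 6 met the standard, against 3.31% of all gene names. This was the acyl-CoA synthetase ACSL3, with 56.3, 133 and 116 FPKM in W_Con and 52.3, 30.4 and 11.6 FPKM in PW_Con. All weaned libraries lay below all sucking libraries (25.3% of gene names did not overlap), with a log2 difference of -1.81 (standard error 0.55, limma adjusted p = 0.178), and the Ballgown model gave -1.87 with an unadjusted P above 0.05. In resveratrol litters ACSL3 had 57.4, 45.7 and 103 FPKM in W_Res and 51.9, 35.2 and 52.1 FPKM in PW_Res, which overlapped (-0.49), and the average over both diets, -1.15 (limma adjusted p = 0.148), met the standard, as did 1.42% of all gene names. Without PW_Con 3 that average was -0.87, and -0.98 without W_Res 3.

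Of the genes of glycerolipid assembly 13 of 17 were matched and 12 tested. In control litters 1 of 12 met the standard, against 3.31% of all gene names. This was the monoacylglycerol acyltransferase MOGAT1, which re-esterifies monoacylglycerol. It had 4.41, 8.54 and 16.7 FPKM in W_Con and 3.86, 3.18 and 1.98 FPKM in PW_Con, a log2 difference of -1.30 (standard error 0.43, limma adjusted p = 0.196). Without W_Con 3 it was -0.87, and without PW_Con 3 it was -1.11 with an unadjusted P above 0.05. MOGAT1 had 4.18, 5.18 and 9.58 FPKM in W_Res and 7.08, 3.07 and 5.57 FPKM in PW_Res, a log2 difference of -0.22, and 0 of the 12 met the standard there. AGPAT4, an acyltransferase of the same list named because of its values, had 4.87, 3.63 and 5.33 FPKM in W_Con and 10.5, 8.95 and 6.99 FPKM in PW_Con, and 5.70, 4.02 and 3.66 FPKM in W_Res and 7.78, 7.34 and 7.66 FPKM in PW_Res. Its weaned libraries lay above its sucking ones in both litters, where 2.79% of gene names did not overlap in either litter with the same direction in both, with an average log2 difference of 0.74 (standard error 0.15, limma adjusted p = 0.0629) inside the fold limit.

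At 28 days, 1 of 10 transcriptional control genes, 1 of 11 elongation and desaturation genes and 1 of 12 glycerolipid genes met the standard as higher in resveratrol litters, against 1.81% of all gene names in either direction. They were PPARG (1.42), CYB5A (1.34), the cytochrome b5 that passes electrons to the desaturases, and GPAT3 (1.04), an acyltransferase of triacylglycerol synthesis. The latter 2 are named because of their values. The limma adjusted p of every gene in these lists was 0.394 or more. PPARG had 4.93 FPKM in PW_Con 1 and 4.97 FPKM in PW_Res 1. CYB5A had 59.9, 41.8 and 10.8 FPKM in PW_Con and 70.0, 70.5 and 97.0 FPKM in PW_Res. GPAT3 overlapped, with 6.78, 13.4 and 4.32 FPKM in PW_Con and 11.2, 23.9 and 16.2 FPKM in PW_Res.

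**Figure D4:**
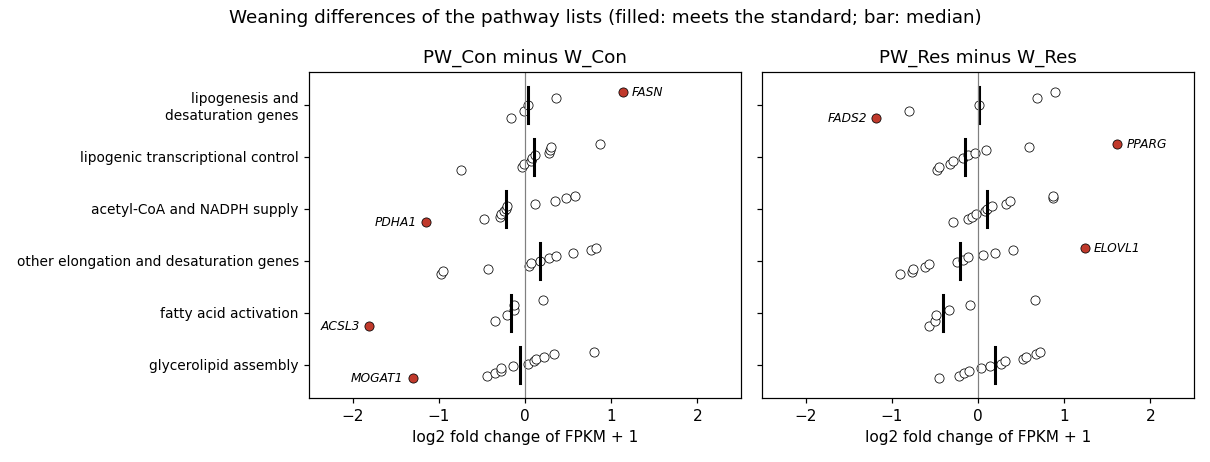
Differences between weaned and sucking piglets on the log2(FPKM + 1) scale (horizontal axis) for the tested genes of the members and the 5 pathway lists, in control and in resveratrol litters; each point is 1 gene, black bars are list medians, and genes meeting the standard are filled and labelled. In control litters FASN (1.13) lies to the right and PDHA1 (-1.15), ACSL3 (-1.81) and MOGAT1 (-1.30) to the left, and in resveratrol litters PPARG (1.62) and ELOVL1 (1.24) to the right and FADS2 (-1.18) to the left.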

How the data were processed

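The authors extracted RNA from jejunum and selected poly(A) RNA, and deposited 1 table of FPKM for 41264 rows in 12 libraries. The study's methods name TopHat, StringTie and Ballgown, whereas the submitters' processing notes list HISAT2 2.0, Bowtie 0.12.2, StringTie 1.3.0 and the builds Sscrofa10.2 and mm8. The order of these steps is not given in the sources used here, and no coordinates or sequences are printed. FPKM hold no counts, so no interval for counting error can be given, and reads shared between related genes may have been split.

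Rows were summed by gene name, and the 17650 rows (42.8%) without one were left out. Values were analysed as log2(FPKM + 1) with limma 3.58.1 in R 4.3.3 (lmFit, eBayes with a trend), over gene names averaging 0.5 FPKM or more in a fit's libraries, with Benjamini-Hochberg adjustment over all of them. Comparisons of 2 groups used their 6 libraries and the other 3 comparisons all 12. P-values measure the spread between 3 piglets a group. The method was tested on simulated data. Alternatives were other pseudocounts, minimums, scalings, row choices, a replicate block, the Ballgown linear model and leaving out libraries, 2 of them chosen after seeing the data (rows with an annotated transcript, and W_Res 2 with W_Res 3 left out).

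The members and gene lists were chosen with earlier results of these data known. Named from each list were up to 4 genes that met the standard in control litters, in resveratrol litters or on average over both diets, and the 5 genes most like FASN. Results for 1 gene of the pathway lists are not reported here.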

Additional observations from a re-analysis of the deposited data

How the results depend on the processing

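The depth behind each gene is unknown and 3 piglets a group limit the precision. For the members and ACLY, 363 of 404 results under other settings kept their direction and their side of the standard, 3 lost the standard, 11 gained it and 27 changed sign. With 1 library left out, 247 of 288 were kept, 2 lost the standard, 14 gained it and 25 changed sign. The FASN difference in control litters ranged from 0.95 to 1.39, with limma or Ballgown adjusted p from 0.103 to 0.283, and the FADS2 difference in resveratrol litters had adjusted p from 0.163 to 1. Where no cause is given, it was not tested.

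The number of members meeting the standard in resveratrol litters went from 1 to 0 with the highest row per gene name, with the Ballgown model and with rows of annotated transcripts only, and with median-of-ratios rescaling it stayed at 1 with SCD in place of FADS2. At 21 days it went from 0 to 1 with a pseudocount of 0.1 (FADS1 1.13), the highest row and rows of annotated transcripts (FADS1 1.02 in both), and to 2 without W_Res 2 and W_Res 3, a fit in which the lone W_Res library is assumed to vary like the other groups. For the difference between litters it went from 0 to 2 without those libraries, under the same assumption (FASN -1.18, FADS1 -1.50), and for weaning averaged over both diets from 0 to 1 with median-of-ratios rescaling (FASN 1.02) and with Ballgown (FASN 1.17). Same-numbered libraries did not deviate together (r from -0.27 to 0.11), and with the replicate block the count for the difference was 1 (FADS2 -1.17, with an unadjusted P under 0.05), the other counts of members being unchanged under the block. Leaving out 1 library, the counts ranged from 0 to 1 in control litters, 0 to 3 in resveratrol litters, 0 to 2 at 21 days, 0 to 2 for the difference and 0 to 1 for the average, and stayed at 0 at 28 days and for resveratrol averaged over both ages.

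In control litters the FADS2 difference changed sign with median-of-ratios rescaling (0.0010) and Ballgown (0.015), and PPARG with quantile normalization (0.032). In resveratrol litters Ballgown turned ACACA (-0.46), FADS1 (1.10) and FADS2 (0.27), and leaving out W_Res 2 and W_Res 3 turned FASN (-0.048), SCD (-0.085), ACACA (-0.18), ACLY (-0.29) and MOGAT1 (0.21). At 21 days ACACA turned with median-of-ratios rescaling (-0.084) and quantile normalization (-0.074), and SCD (0.22) and ACLY (0.58) without W_Res 2 and W_Res 3. At 28 days FASN turned with median-of-ratios rescaling (0.039), FADS1 with the highest row (0.026), annotated rows (0.026) and Ballgown (0.78), and FADS2 with Ballgown (0.11). For the difference, FASN turned with Ballgown (0.0080), and SCD (-0.11), ACACA (-0.019) and ACLY (-0.19) without W_Res 2 and W_Res 3. For the average, ACACA turned with median-of-ratios rescaling (0.032) and the highest row (0.029), FADS1 with Ballgown (0.18), and SCD (-0.028) and ACLY (-0.20) without W_Res 2 and W_Res 3.

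With 1 library left out, signs changed within these ranges: in control litters ACLY -0.25 to 0.060, FADS2 -0.51 to 0.33, SCD -0.26 to 0.25 and PPARG -0.37 to 0.32; in resveratrol litters ACACA -0.16 to 0.10, ACLY -0.054 to 0.61 and MOGAT1 -0.43 to 0.083; at 21 days ACLY -0.33 to 0.34 and ACACA -0.078 to 0.18; at 28 days FADS2 -0.66 to 0.18, FASN -0.25 to 0.083 and SCD -0.12 to 0.39; for the difference ACACA -0.0023 to 0.26; and for the average ACLY -0.08 to 0.25.

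Over all genes, the count meeting the standard moved with the pseudocount of 0.1, the minimum of 5 FPKM and Ballgown: in control litters from 418 to 853 and 227 with the former settings, in resveratrol litters from 618 to 1163, 245 and 230, at 21 days from 590 to 1008, 248 and 175, and at 28 days from 224 to 488, 122 and 340. For the difference it moved from 1000 to 364 with the minimum of 5 FPKM and 284 with Ballgown. It went from 183 to 591 and 118 for the average over diets and from 121 to 379 and 76 for resveratrol with the pseudocount and the minimum. Annotated rows alone gave 396 in resveratrol litters. With 1 library left out the counts ranged from 380 to 550 in control litters, 388 to 1049 in resveratrol litters, 394 to 944 at 21 days, 222 to 426 at 28 days, 633 to 1367 for the difference, 153 to 255 for the average over diets and 103 to 167 for resveratrol over both ages. Median-of-ratios rescaling moved the share of higher among those genes from 66.8% to 55.6% at 21 days, from 47.3% to 61.1% at 28 days, from 23.3% to 42.8% for the difference and from 51.9% to 69.4% for the average.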
